A study of Mus musculus with 12 samples.

Results

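DNA replication licensing was examined through 10 genes: Mcm2, Mcm3, Mcm4, Mcm5, Mcm6 and Mcm7, Cdc6, Cdt1, Gmnn and Cdc45. They were chosen by name and Ensembl identifier, not by a measured value, although earlier results of these data were known. The identifiers run, in that order, ENSMUSG00000002870, ENSMUSG00000041859, ENSMUSG00000022673, ENSMUSG00000005410, ENSMUSG00000026355, ENSMUSG00000029730, ENSMUSG00000017499, ENSMUSG00000006585, ENSMUSG00000006715 and ENSMUSG00000000028. All 10 were among the 10481 genes in the deposited table. Ribosome-protected fragments, the pieces of mRNA that a ribosome shields from RNase, were counted per gene in brain and spinal cord of mouse embryos at E14.5. Control embryos were Smn+/-; SMN2tg/0 and SMA embryos, a model of spinal muscular atrophy, were Smn-/-; SMN2tg/0, both of the Taiwanese strain, so all groups carried the human SMN2 transgene and the controls had lost 1 of the mouse Smn alleles. Each of the 4 groups had 3 libraries. The study counts embryos as its replicates, and the labels do not say which embryo a library came from. Footprints on a gene follow both its mRNA level and the ribosomes on that mRNA, and no RNA-seq was analyzed here.

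Licensing is the step by which a cell in G1 prepares its replication origins. Cdc6 and Cdt1, with the origin recognition complex, load the ring-shaped helicase built of Mcm2 to Mcm7 onto DNA, and Cdc45 later joins the loaded helicase to make it active in S phase. Geminin, the protein of Gmnn, binds Cdt1 and blocks a further round of loading until the cell has divided. In the embryonic nervous system these genes are expressed in cycling progenitors and are shut down as neurons leave the cell cycle.

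Many of these genes are textbook targets of E2F transcription factors, so their promoters were read first. RefSeq promoters on GRCm38.p6, from 250 bases before to 50 after the start, were at hand for 8 of the 10 genes, all but Gmnn and Mcm4. The letters TTTCCCGC, TTTCGCGC, TTTGCCGC or TTTGGCGC, searched on both strands, occurred in at least 1 promoter of 6 of these 8 genes, and in 2.61% of all 27025 genes with a promoter in the table (2.26% of 32851 promoters). Mcm2 and Cdc45 had no match. The 4 promoters below show where the matches lay, in capitals: just after the transcription start in Mcm3 and Cdt1, and upstream of it in Mcm5 and Mcm6, where matches on opposite strands overlapped. They lie at chr1:20820263-20820562 (Mcm3, minus strand), chr8:75109259-75109558 (Mcm5, plus strand), chr1:128359656-128359955 (Mcm6, minus strand) and chr8:122567765-122568064 (Cdt1, plus strand). A match describes the letters and does not show that a factor bound there.
Mcm3: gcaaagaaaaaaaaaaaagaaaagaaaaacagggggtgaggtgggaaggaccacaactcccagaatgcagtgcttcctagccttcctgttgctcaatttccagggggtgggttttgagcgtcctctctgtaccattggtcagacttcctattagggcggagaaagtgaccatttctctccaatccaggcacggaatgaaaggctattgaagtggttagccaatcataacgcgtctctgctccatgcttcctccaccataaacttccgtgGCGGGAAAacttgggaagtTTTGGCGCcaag
Mcm5: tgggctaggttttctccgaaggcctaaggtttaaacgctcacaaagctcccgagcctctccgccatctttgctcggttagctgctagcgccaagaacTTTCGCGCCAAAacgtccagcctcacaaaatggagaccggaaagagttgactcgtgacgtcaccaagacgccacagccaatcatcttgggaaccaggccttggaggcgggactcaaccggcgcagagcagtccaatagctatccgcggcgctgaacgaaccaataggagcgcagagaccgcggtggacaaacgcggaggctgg
Mcm6: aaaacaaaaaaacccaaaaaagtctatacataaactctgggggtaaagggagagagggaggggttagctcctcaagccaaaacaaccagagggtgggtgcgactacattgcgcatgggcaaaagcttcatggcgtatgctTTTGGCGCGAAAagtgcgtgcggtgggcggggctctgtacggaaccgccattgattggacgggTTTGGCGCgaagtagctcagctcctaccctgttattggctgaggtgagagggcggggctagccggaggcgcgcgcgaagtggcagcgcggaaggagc
Cdt1: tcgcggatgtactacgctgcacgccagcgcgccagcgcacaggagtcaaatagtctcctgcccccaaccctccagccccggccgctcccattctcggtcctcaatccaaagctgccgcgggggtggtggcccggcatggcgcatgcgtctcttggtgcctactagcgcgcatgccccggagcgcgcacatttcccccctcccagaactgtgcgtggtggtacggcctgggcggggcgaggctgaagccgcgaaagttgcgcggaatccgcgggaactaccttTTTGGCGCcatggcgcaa

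The letters CCAAT, on either strand, were found in 6 of the 8 genes and in 41.1% of all genes with a promoter. Mcm3, Mcm5 and the second of the Mcm7 promoters at hand held 3 matches each, whereas Cdc6 and Cdt1 held none. The letters TTTGAA occurred in 2 of the 8 genes, Mcm2 and Cdc45, and in 20.2% of all genes with a promoter.

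Library totals ran from 3683842 to 9117017 counts in brain and from 5162190 to 12793955 in spinal cord. A licensing gene had between 9 and 2162 counts in a library, so the lowest values in spinal cord rest on few fragments. Levels are given as CPM, counts scaled to a common library size scaled with TMM factors of all 12 libraries. Hoxc6, Hoxc8 and Hoxc10, markers of the spinal cord, were at 0.928 CPM or less in each brain library, whereas the forebrain marker Lhx2 was not absent from spinal cord. Its level was 38.3 CPM in control spinal cord library 1, 21.7 and 19.6 CPM in the other control libraries and 27.8, 8.0 and 15.7 CPM in the SMA libraries. Control spinal cord library 1 was also the highest spinal cord library for 10 of 10 licensing genes, against 25% of all genes, so spinal cord results are given with and without it. Targeted Smn1 was not analyzed here, since no gene name at hand identified it.

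Ribosome footprints on licensing genes were more abundant in brain than in spinal cord. In control embryos 9 of the 10 genes were higher in brain at an adjusted p below 0.05 (edgeR quasi-likelihood test, Benjamini-Hochberg over all genes), against 21.1% of all genes, with log2 differences from 0.75 for Mcm4 to 1.75 for Cdc6. Cdt1 missed the threshold with a log2 difference of 1.14 (SE 0.46, adjusted p = 0.065 in edgeR), and without control spinal cord library 1 all 10 passed. In SMA embryos 10 of 10 passed, against 19.3% of all genes, and the differences ran from 0.97 for Mcm4 to 2.21 for Cdc6. Some related genes with a name at hand were also higher in brain at this threshold. In control and SMA embryos they were 6 and 7 of 7 mitosis genes, and 5 and 7 of 9 replication fork genes. Nucleotide supply had 3 and 2 of 3 genes, G1/S control 3 and 4 of 8, and helicase activation 0 and 0 of 3. Within each genotype no brain library overlapped a spinal cord library for any of the 10 genes, a separation seen for 27.3% of all genes in control and 25.8% in SMA embryos. Tissue as a whole was sequenced, so fewer cycling cells and fewer footprints per cell cannot be told apart.

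**Figure D1:**
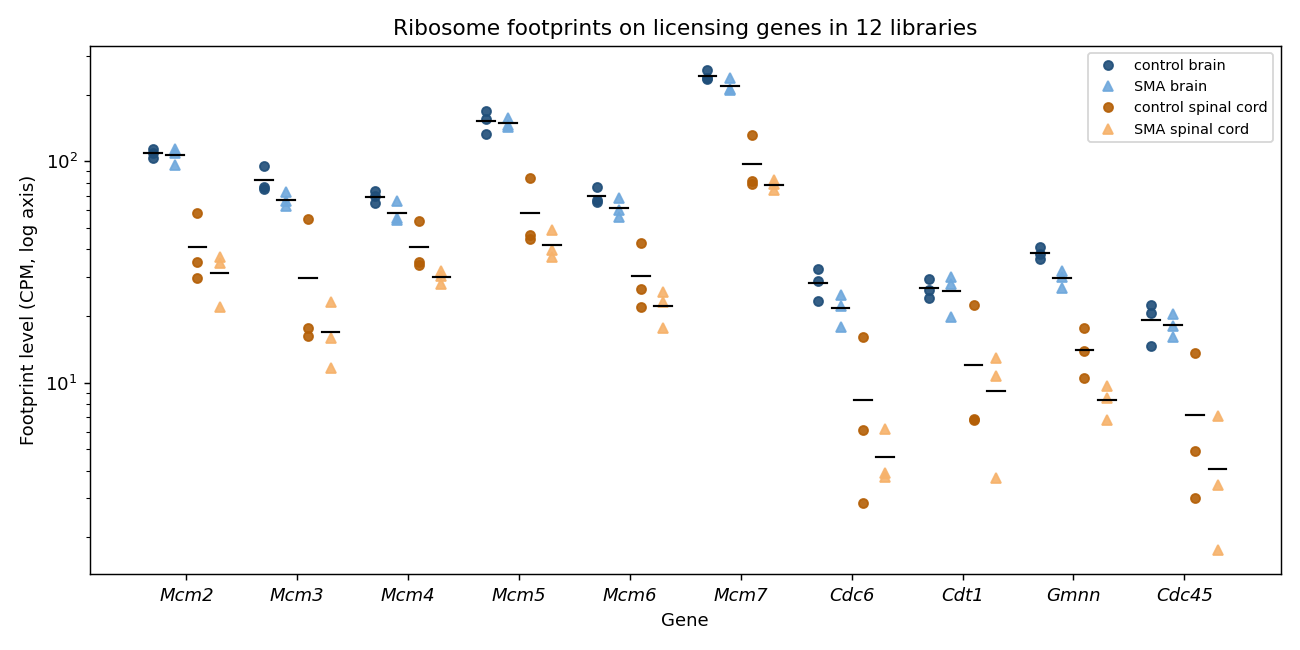
Footprint level in CPM (log axis) of each licensing gene in each library, with circles for control, triangles for SMA and a line at the mean of 3 libraries. Brain lies above spinal cord within each genotype for all 10 genes, and 1 control spinal cord library lies above the other 5 spinal cord libraries for each gene.

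Mcm7 carried the most footprints of the helicase subunits. In control brain it had 236.5, 258.9 and 237.1 CPM, and in SMA brain 210.2, 237.1 and 212.5 CPM. Control spinal cord had 132.1, 81.8 and 78.7 CPM and SMA spinal cord 82.7, 78.7 and 74.0 CPM. The genotypes overlapped in both tissues, and the control spinal cord library at 132.1 CPM stood alone. The gene spans chr5:138164583-138172111, where the annotation also places the microRNAs Mir25, Mir93 and Mir106b inside it, and it shares 91 bases with Ap4m1. Whether counting used strand is not given in the sources used here, so reads in the overlap with Ap4m1 could belong to either gene.

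Mcm5 came next, at 155.5, 168.3 and 132.5 CPM in control brain and 143.0, 145.5 and 157.3 CPM in SMA brain. In spinal cord it had 83.9, 44.5 and 46.3 CPM in control and 49.0, 39.8 and 37.2 CPM in SMA embryos. The SMA brain libraries lay within the control range, and in spinal cord SMA library 1 exceeded 2 of the control libraries.

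Levels between genes can be compared only per length, and the length in the file counts all exons, coding or not. On that scale Mcm7 supplied 34.6% of the footprints of the 6 subunits on average over the 12 libraries and Mcm5 22.2%, and Mcm7 exceeded Mcm5 in each library although the assembled helicase has its subunits in equal number. Mcm4 made up 13.9%, Mcm3 11.0%, Mcm2 9.19% and Mcm6 9.08%. Per length, Mcm6 and Mcm2 did not differ beyond the spread between libraries, since their order changed from library to library. The place of Mcm2 rests on that division. Its length in the file is 6956 bases, against 3589 for Mcm4 to 4666 for Mcm6 among the other subunits. Without division by length Mcm2 made up 14.7%, above Mcm4 at 11.5%, whereas Mcm7 and Mcm5 stayed highest at 33.9% and 20.5%.

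The mix of subunits differed between the tissues. Mcm4 took 11.2% ± 0.96 (SD, n = 6) of the helicase footprints in brain and 16.7% ± 1.36 (SD, n = 6) in spinal cord, with ranges of 10.2% to 12.3% and 14.8% to 18.0% that did not overlap (exact permutation of tissue within genotype, 2-sided p = 0.005, the smallest the design allows, 0.03 adjusted over the 6 subunits). Mcm5 took 23.6% ± 1.81 in brain and 20.8% ± 1.16 in spinal cord (adjusted exact permutation p = 0.045), with overlapping ranges. For Mcm2, Mcm3, Mcm6 and Mcm7 the adjusted exact p lay between 0.1 and 0.59, but the overlap of Mcm3 came from 1 library. With control spinal cord library 1 left out, Mcm3 took 8.54% ± 1.49 (SD, n = 5) in spinal cord, from 6.71% to 10.8%, below each brain library at 11.1% to 14.4% (adjusted exact permutation p = 0.015), while Mcm4 gave 0.015 and Mcm5 0.03. This test was chosen after the shares were seen.

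**Figure D2:**
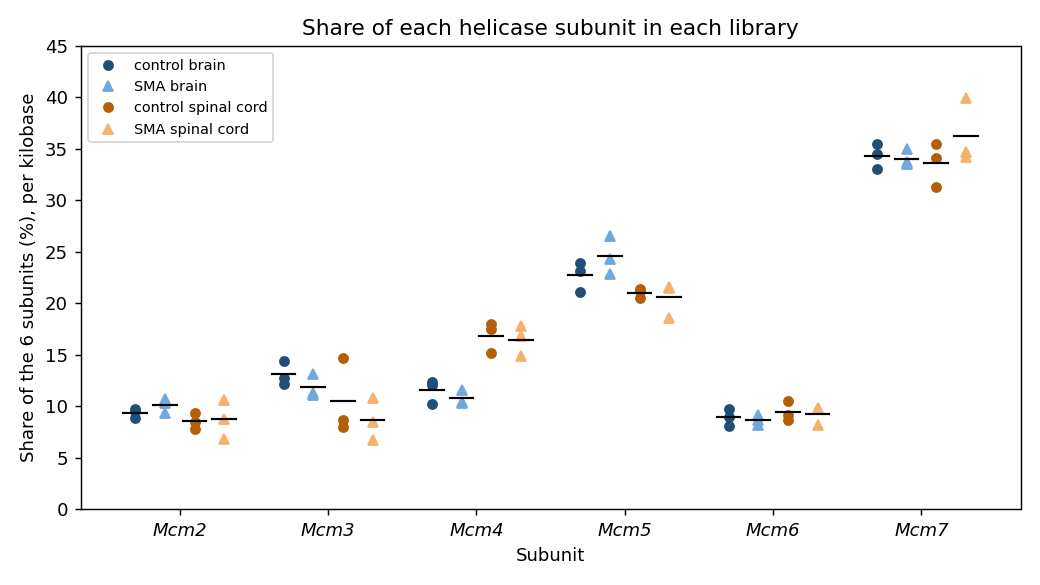
Share of each subunit among the footprints of Mcm2 to Mcm7 (percent, per kilobase of exon length) in each library, with a line at the mean of each group of 3. Mcm7 is highest throughout, and Mcm4 lies between 14.8% and 18.0% in spinal cord, above each brain library.

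SMA was then compared with control within each tissue to ask whether licensing genes differed between genotypes before birth. In brain 10 of 10 genes had a negative log2 fold change, against 49.1% of all genes, with a median of -0.15 where the median of all genes was 0.00. Of these, 2 passed the pathway thresholds of the study (a log2 change of 0.3 or more in size with an unadjusted p below 0.05), namely Gmnn and Cdc6, against 2.57% of all genes in that direction. No gene of the 10481 passed an adjusted p of 0.05 in brain, and the licensing genes lay between 0.902 and 0.992 (edgeR). DESeq2 called no licensing gene in brain at the pathway thresholds, against 2.11% of all genes in either direction.

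Gmnn, the inhibitor, was the only gene of the 10 that separated the genotypes in both tissues. It had 41.0, 38.2 and 36.4 CPM in control brain and 30.1, 32.1 and 26.8 CPM in SMA brain. Its level in spinal cord was 17.6, 10.5 and 13.8 CPM in control and 6.79, 8.55 and 9.66 CPM in SMA embryos. Each SMA library lay below each control library of its tissue, as was the case for 7.18% of all genes in brain and 6.29% in spinal cord. The log2 fold change was -0.36 (SE 0.13, unadjusted p = 0.016 in edgeR) in brain and -0.76 (SE 0.24, unadjusted p = 0.016 in edgeR) in spinal cord. Adjusted p-values were 0.902 and 0.684.

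With each library left out in turn, Gmnn ran from -0.43 to -0.30 in brain, where the unadjusted p reached 0.064, and from -0.93 to -0.56 in spinal cord, where it stayed at or below 0.048 (edgeR). Leaving out both spinal cord libraries numbered 1, which had the highest Lhx2 levels of their groups, gave -0.43 with an unadjusted p of 0.098 in edgeR. In 1 additive model over both tissues the value was -0.56 (SE 0.14, unadjusted p = 0.0013, adjusted p = 0.321 in edgeR). That model took the 12 libraries as independent, and the labels do not say whether brain and spinal cord came from the same embryos. If they did, its SE and p could be too small. Gmnn lies at chr13:24751845-24761937.

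Cdt1, the loader that geminin binds, had 29.5, 26.3 and 24.2 CPM in control brain and 27.9, 30.1 and 19.8 CPM in SMA brain, with a log2 fold change of -0.02 (95% interval -0.39 to 0.34). Spinal cord values were 22.5, 6.75 and 6.82 CPM in control and 10.7, 3.69 and 12.9 CPM in SMA embryos, a log2 fold change of -0.41 (95% interval -1.86 to 1.03). The genotypes overlapped in both tissues. Per kilobase, footprints on Gmnn exceeded those on Cdt1 by 3.11 ± 0.125-fold (SD, n = 3) in control brain and 2.5 ± 0.345-fold (SD, n = 3) in SMA brain, with ranges of 2.98 to 3.23 and 2.29 to 2.90. In spinal cord the ratio was 3.12 ± 1.35 in control and 2.64 ± 2.02 in SMA embryos, and the ranges overlapped, as they did without control spinal cord library 1 (3.84 ± 0.716 over 2 control libraries).

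Set against the mean of Mcm2 to Mcm7 per kilobase in the same library, Gmnn stood at 94.4% ± 5.57 (SD, n = 3) in control brain and 79.98% ± 5.26 (SD, n = 3) in SMA brain, without overlap (2-sided exact permutation p = 0.1, the smallest that 3 against 3 can give). In spinal cord it stood at 85.5% ± 16.8 and 67.8% ± 16.4, with overlap (exact permutation p = 0.4). Control library 1 had the lowest control ratio, 72.7%. Without it the mean of 2 control libraries was 91.95%, with no overlap (exact permutation p = 0.2). The same ratio of Cdc6, Cdt1 and Cdc45 overlapped between genotypes in both tissues, also without control library 1. These ratios were chosen after the data were seen.

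Cdc6, the ATPase that works with Cdt1 in loading, had 32.6, 28.8 and 23.4 CPM in control brain and 17.8, 24.9 and 22.3 CPM in SMA brain. The log2 fold change was -0.37 (SE 0.17, unadjusted p = 0.047, adjusted p = 0.902 in edgeR), although SMA library 2 exceeded control library 3. It fell short of the thresholds in 4 of the 6 fits that left out a library. In spinal cord it had 16.1, 6.10 and 2.84 CPM in control and 6.17, 3.88 and 3.76 CPM in SMA embryos, a log2 fold change of -0.87 (SE 0.61) that was 0.04 without control library 1.

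Of the helicase subunits in brain, Mcm3 had 76.9, 95.4 and 75.1 CPM in control and 72.5, 66.4 and 62.7 CPM in SMA embryos. Each SMA library was lower, with a log2 fold change of -0.28 (SE 0.12, unadjusted p = 0.045, adjusted p = 0.902 in edgeR), short of the fold change threshold. Mcm4 had a log2 fold change of -0.21, Mcm6 of -0.16 and Mcm7 of -0.13, with 95% intervals that included 0. Mcm2, at 113.9, 109.3 and 103.9 CPM in control and 109.6, 114.1 and 96.5 CPM in SMA brain, was at -0.01 (95% interval -0.23 to 0.20), and Mcm5 was at -0.02 (95% interval -0.25 to 0.21).

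**Figure D3:**
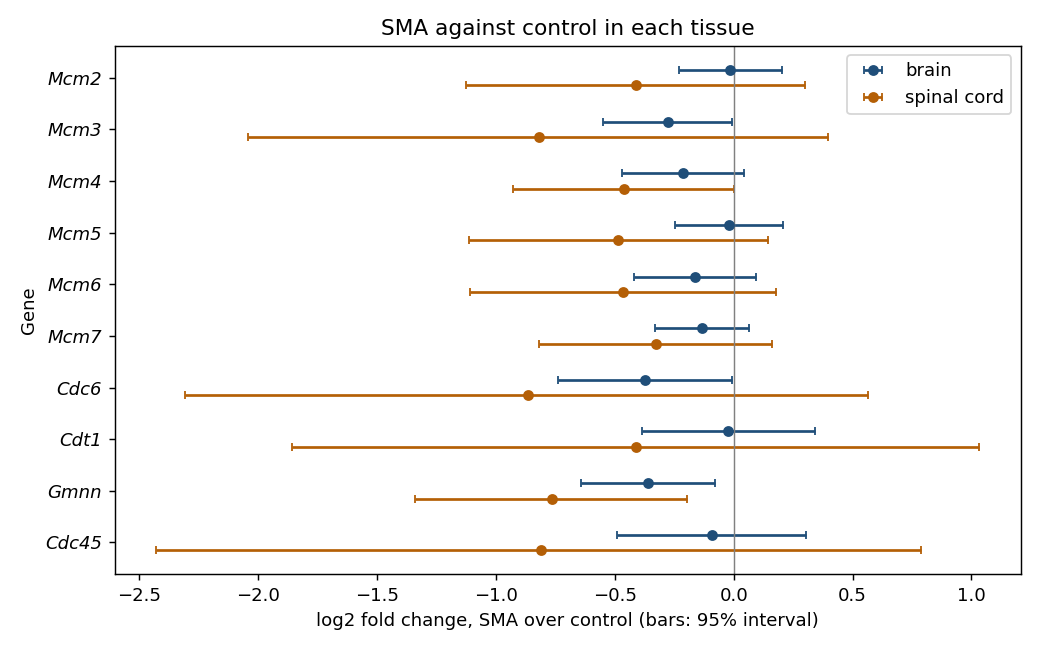
Log2 fold change of SMA over control for each licensing gene in brain and in spinal cord, with 95% intervals from the edgeR fit of each tissue. All 20 points lie below 0, and the intervals exclude 0 for Mcm3, Cdc6 and Gmnn in brain and for Gmnn in spinal cord.

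In spinal cord 10 of 10 genes again had a negative log2 fold change, against 51.1% of all genes, with a median of -0.47 where that of all genes was -0.01. Only Gmnn passed the pathway thresholds, against 2.14% of all genes in that direction. The count was 3 without control library 2, where 4.56% of all genes passed in either direction, or without control library 3 (5.69%). It was 1 without control library 1 (2.2%) and without any single SMA library (2.67% to 9.35%). Adjusted p-values of the licensing genes lay between 0.684 and 0.850 (edgeR). No gene passed an adjusted p of 0.05 in edgeR, and 733 had an unadjusted p below 0.05. DESeq2 called 57 genes at an adjusted p of 0.05, and gave none of the licensing genes an adjusted p.

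These spinal cord values rested on control library 1. It exceeded the next spinal cord library by 1.27-fold for Gmnn to 2.61-fold for Cdc6, and without it the median of the 10 genes was -0.05. Mcm3 was at 54.8, 16.3 and 17.6 CPM in control and 23.1, 11.7 and 15.9 CPM in SMA embryos, with a log2 fold change of -0.82 (SE 0.52) that became -0.01. Mcm4, at 54.0, 35.0 and 34.0 CPM in control and 30.2, 28.0 and 31.9 CPM in SMA embryos, was the other gene without overlap, and its log2 fold change of -0.46 (SE 0.20, unadjusted p = 0.051 in edgeR) became -0.21.

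Mcm2 had 58.6, 35.1 and 29.6 CPM in control and 34.5, 21.95 and 37.0 CPM in SMA spinal cord, and Mcm6 42.6, 21.9 and 26.6 CPM and 25.8, 17.7 and 23.1 CPM. Cdc45 had 13.6, 3.0 and 4.93 CPM in control and 7.03, 1.75 and 3.44 CPM in SMA spinal cord. The genotypes overlapped for each of these genes. Cdc45 moved from -0.81 (SE 0.68) to 0.06 without control library 1. In brain it had 22.4, 20.6 and 14.6 CPM in control and 18.0, 16.1 and 20.4 CPM in SMA embryos, a log2 fold change of -0.09 (SE 0.18). Cdc45 shares 237 bases with Ufd1 in the annotation.

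Lhx2 moved with the spinal cord result, and its part in it was not tested. The sum of the 10 licensing genes was 495.7 CPM in control library 1, 260.8 and 261.3 CPM in the other control libraries and 276.0, 215.6 and 248.8 CPM in the SMA libraries, the highest library being the same as for Lhx2. Without both spinal cord libraries numbered 1, the median log2 fold change of the licensing genes was -0.24. None of them passed the thresholds in that fit, against 7.11% of all genes in either direction.

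**Figure D4:**
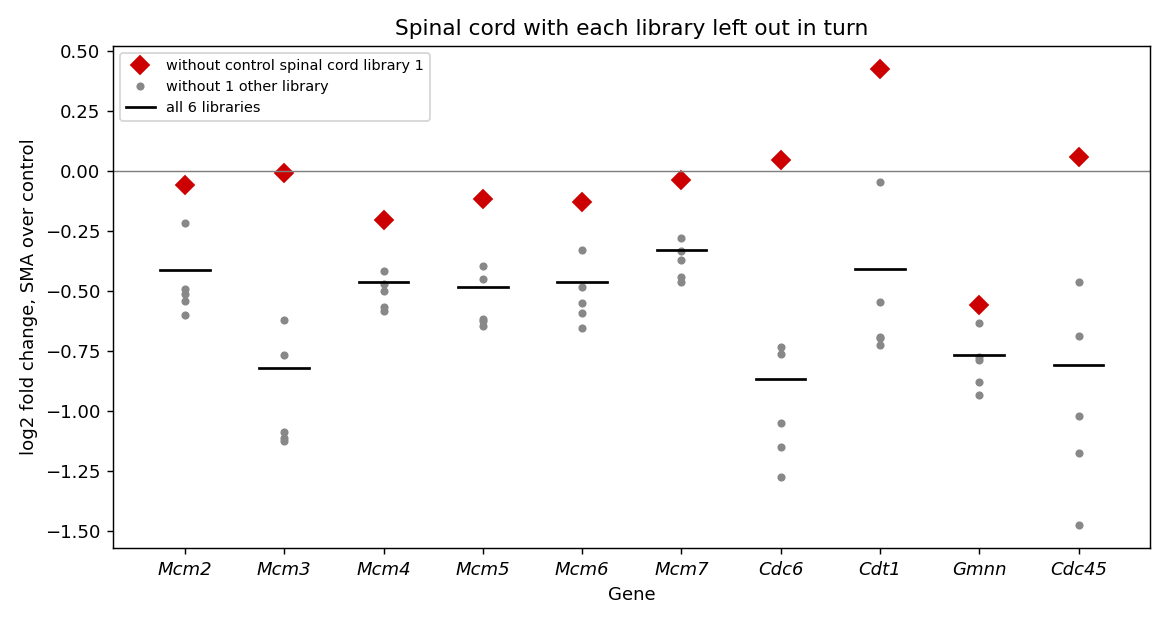
Log2 fold change of SMA over control in spinal cord for each licensing gene, with all 6 libraries (line), without control spinal cord library 1 (diamonds) and without each other library (dots). Without control library 1 the values of 9 genes lie between -0.21 and 0.42, and Gmnn lies at -0.56.

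Whether the genotype effect differed between the tissues was tested as the interaction of tissue and genotype. It was negative, more so in spinal cord, for 10 of 10 genes, against 44.4% of all genes, with values from -0.69 for Cdc45 to -0.17 for Mcm7. None had an unadjusted p below 0.05, against 2.38% of all genes, and each adjusted p was 1 (edgeR). Without control spinal cord library 1 the values ran from -0.18 for Gmnn to 0.49 for Cdt1. In the additive model over both tissues 10 of 10 values were negative, against 52.3% of all genes, and Gmnn and Mcm4 passed the pathway thresholds, against 1.99% of all genes in that direction, with Mcm4 at -0.34 (SE 0.11, unadjusted p = 0.011, adjusted p = 0.321 in edgeR). The limit given above for that model, that the tissues may share embryos, holds for these values too.

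Correlation among the licensing genes across libraries was high in spinal cord and uneven in brain. In spinal cord the Pearson r of a gene with the mean of the other 9 over 6 libraries lay between 0.83 and 0.99 for all but Gmnn, for which it was 0.61, and control library 1 is a point that all these values share. In brain Gmnn had the highest value, 0.87, and Cdc45 the lowest, 0.29. Among genes with a name at hand, those most like the mean of the 10 over 6 libraries were Fam114a2, Galk1, Zfp36l1, Zcrb1 and Tcf3 in brain (r from 0.97 to 0.99) and Ranbp2, Tbc1d15, Xpo7 and Top2a in spinal cord (r at 0.99 or above).

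Other genes of the replication and cell cycle lists were followed where a name was at hand. Of the 9 replication fork genes, 8 had negative log2 fold changes in brain (median -0.15) and 8 in spinal cord (median -0.33), and none passed the pathway thresholds. Uhrf1, which guides maintenance methylation of new DNA, had -0.23 (SE 0.09, unadjusted p = 0.029 in edgeR) in brain, and Rpa1, of the single-strand binding complex, had -0.29 (SE 0.08, unadjusted p = 0.012 in edgeR) in spinal cord. None of the 3 helicase activation genes (Dbf4, Mtbp, Ccne1), 8 G1/S control genes and 7 mitosis genes passed in either tissue, with medians of -0.04, 0.01 and -0.14 in brain and -0.20, -0.19 and -0.58 in spinal cord. Mitosis genes summed to 338.8 CPM in control spinal cord library 1 and to between 82.5 and 134.9 CPM in the other spinal cord libraries.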

How the data were processed

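Ribosome footprints of 12 libraries, 3 per group, were analyzed. The authors deposited raw footprint counts per gene with gene lengths. Per the labels and methods, the authors trimmed reads with cutadapt 4.1, removed rRNA and tRNA reads, aligned the rest with STAR 2.5.3a to GRCm38.p6 and removed genes with low FPKM, leaving 10481. The counting tool and strand setting are not given in the sources used here. Reads that align to several places can add to more than 1 gene, and any removal of reads at 1 position would lower the counts of highly occupied genes most.

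Counts were tested in R 4.3.3 with edgeR 4.0.16 (TMM, estimateDisp, glmQLFit, glmQLFTest; 2-sided), each tissue on its own for SMA against control, and all 12 libraries for tissue, additive and interaction terms, with Benjamini-Hochberg adjustment over all genes. DESeq2 1.42.0 was an alternative, beside other scalings, filters, a replicate block, a trend correction and each library left out. The fits were tested on simulated data. The plots come from matplotlib 3.10.9 under Python 3.11.15. The 10 genes, the lists and the tests were chosen with earlier results of these data known. Named beyond the 10 were up to 3 genes of smallest p per list and the 5 most alike genes with a name, and some of these and of the listed genes are not reported here. Names came from the study's gene table as far as at hand, for 7 of the 10 genes, and from the list of identifiers for 3. No listed origin recognition, endothelial, Schwann cell, microglial or red blood cell gene had a name at hand.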

Additional observations from a re-analysis of the deposited data

How the results depend on the processing

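Across the alternatives the number of licensing genes past the pathway thresholds moved, while the median log2 fold change stayed negative in each tissue. Percentages in brackets are the share of all genes that passed, in either direction unless stated. In brain 2 passed (3.76%). The count was 0 with DESeq2 (2.11%), 1 with upper-quartile factors (3.64%) and 0 in 1 fit over all 12 libraries (2.89%). It was 1 after a loess correction of each library for counts per base (3.6%). With each library left out it was 0 to 3 (3.71% to 5.24%). At a log2 threshold of 0.5 in place of 0.3 it was 0 (0.992%, lower in SMA). In spinal cord 1 passed (4.19%). The count was 2 with DESeq2 (4.03%), library size alone (4.44%), upper-quartile factors (4.11%) or robust estimation (4.43%). It was 3 in 1 fit over all 12 libraries (5.51%), and 1 to 3 with each library left out (2.2% to 9.35%). Over both tissues, where 2 passed (3.62%), it was 1 at the 0.5 threshold (0.601%, lower in SMA). With each library left out it was 1 to 4 over both tissues (2.25% to 5.83%). For the interaction, counted at an unadjusted p below 0.05 in edgeR, it was 0 to 1 (1.81% to 4.04%). The count of genes higher in brain ran from 8 to 10 in control and 9 to 10 in SMA embryos. Of all genes, 30.8% to 44.2% differed between the tissues in either direction in control and 30.8% to 42.6% in SMA embryos. Leaving out both spinal cord libraries numbered 1, chosen after seeing the data, gave 0 in spinal cord (7.11%) and 1 over both tissues (4.29%). It turned Cdt1 to 0.30 in spinal cord and 0.0886 over both tissues. The interaction turned to 0.00781 for Mcm4, 0.0541 for Mcm7, 0.14 for Cdc6 and 0.34 for Cdt1.

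Signs turned in brain for Mcm2 (0.00797) and Cdt1 (0.0227) under that trend correction. With each library left out, log2 fold changes that crossed 0 ran in brain as follows: Mcm2 -0.066 to 0.0518, Mcm5 -0.10 to 0.0577, Cdt1 -0.15 to 0.13, Cdc45 -0.23 to 0.0355. In spinal cord they were Cdc6 -1.27 to 0.0438, Cdt1 -0.73 to 0.42, Cdc45 -1.48 to 0.0557, over both tissues Cdt1 -0.32 to 0.16, and for the interaction Mcm3 -0.81 to 0.31, Mcm4 -0.33 to 0.0342, Mcm6 -0.46 to 0.0624, Mcm7 -0.30 to 0.12, Cdc6 -0.86 to 0.45, Cdt1 -0.66 to 0.49, Cdc45 -1.36 to 0.18. The median in spinal cord ran from -0.67 to -0.05 (without control library 1) and in brain from -0.22 to -0.11. The cause was not tested.

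The labels share replicate numbers across genotypes but do not say whether these pair the libraries, so the main fits did not use them. Between genotypes the correlation of same-numbered libraries ran from -0.14 to 0.09 in brain and from -0.33 to 0.67 in spinal cord. In brain 2 of 6 and in spinal cord 4 of 6 libraries correlated best with their own number. With 3 libraries per group these values cannot decide whether the libraries were paired. With the replicate block, 1 licensing gene passed in brain, against 4.0% of all genes in either direction, and 6 in spinal cord, against 7.1%.

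Over all genes, the number past the pathway thresholds was 394 in brain, 220 with DESeq2. In spinal cord it was 439, with 744 under the replicate block, 745 without both libraries numbered 1 and 231 to 980 with each library left out, and the number at an unadjusted p below 0.05 moved from 733 to 1438 under the block. Low counts limit Cdc6, Cdt1 and Cdc45 in spinal cord.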

Other observations

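Nes, an intermediate filament gene of neural progenitors, met the thresholds in brain and in spinal cord alike, with log2 fold changes of -0.33 (SE 0.11, unadjusted p = 0.0093, adjusted p = 0.902 in edgeR) in brain and -0.41 (SE 0.11, unadjusted p = 0.0066, adjusted p = 0.684 in edgeR) in spinal cord. It had 348.8, 377.2 and 390.3 CPM in control brain and 329.7, 297.1 and 248.5 CPM in SMA brain. In spinal cord it had 159.5, 150.2 and 168.1 CPM in control and 111.0, 113.0 and 139.0 CPM in SMA embryos, and the genotypes did not overlap in either tissue. The other progenitor markers with a name at hand did not move with it: in spinal cord Slc1a3, a glial glutamate transporter, had a log2 fold change of 0.24 (SE 0.10, unadjusted p = 0.047 in edgeR) and Fabp7, a fatty acid binding protein of radial glia, of 0.32 (SE 0.17, unadjusted p = 0.098 in edgeR). Of the 4 neuronal markers, none passed in either tissue.

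Apoa2, a gene of liver and yolk sac, was at 115.9 CPM in SMA spinal cord library 1 and 45.3 CPM in control spinal cord library 3, and between 0.4 and 4.6 CPM in the other spinal cord libraries. Col1a1, a collagen gene of meninges and fibroblasts, was at 53.4 CPM in control spinal cord library 2 and between 8.2 and 20.8 CPM in the other spinal cord libraries.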
